A study of Mus musculus with 8 samples.

Results

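Caveolins and their coat proteins were followed in cultures of adipose-derived stem cells (ADSCs), which are stromal cells grown out of fat tissue. The genes, taken by name from what is known of the caveolar coat, with earlier results of these data known, were Cav1, Cav2, Ptrf (Cavin1), Sdpr (Cavin2), Prkcdbp (Cavin3) and Ehd2. These are 6 of the 24346 genes listed, and all 6 were among the 18862 genes with a value above 0 in at least 1 library. RNA came from wild-type BALB/c mice, adult males whose gonadal adipose tissue was digested with collagenase. The 4 libraries of 2D culture came from mice 2, 3, 4 and 5. Mice 1, 4, 5 and 7 gave the 4 libraries of 3D culture, and both cultures were thus taken from mice 4 and 5. The description label of the 3D library of mouse 1 does not name the culture as those of the others do, while its title and group label give 3D. The 3D cells were embedded in Matrigel, a basement membrane extract, and were passaged there. The paper grew them with and without medium conditioned with Wnt3a and R-Spondin1. It does not state which medium or passage the sequenced cultures had. Matrix thus changed together with the culture form, and medium and passage may have changed with it too. All 8 libraries were total RNA depleted of ribosomal RNA, and a group is 1 culture per animal.

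Caveolae are small flask-shaped pits of the plasma membrane, abundant in fat cells, endothelium, smooth muscle and fibroblasts, that flatten when the membrane is stretched and gather receptors and lipids. Caveolin-1 is the integral membrane protein without which they do not form outside muscle, caveolin-2 joins it in mixed oligomers, the cavins coat the bulb from the cytosolic side, and the ATPase EHD2 sits as a ring at the neck. Caveolin-2 alone is poorly delivered to the surface and is largely held in the Golgi.

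The files give expression as FPKM, fragments scaled to the length of the transcript and the size of the library, a level corrected for gene length and library size. From the steps between low values, each library was estimated to hold 14500000 to 17380000 fragments, and 3 fragments over a transcript of 1 kb then correspond to 0.173 to 0.207 FPKM. Levels below are quantile-normalized FPKM unless the deposited values are named. Correlations of log2 values were 0.932 to 0.974 between libraries of the same culture and 0.758 to 0.823 between cultures. Fold changes of the fit are on the scale of log2(normalized FPKM + 1), 3D minus 2D, with the standard error, and understate the change of genes at low levels. Adjusted p-values are Benjamini-Hochberg values of limma over all 18862 genes.

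Among markers of the labelled cell type, the stromal sum separated the cultures. The sum of the markers used for mesenchymal stem cells overlapped, at 241 to 513 in 2D and 152 to 3180 in 3D. The counts of passing markers stand beside 20.3% lower and 21.2% higher in 3D over all genes tested. The summed level of 8 stromal markers was 1540 to 3384 in 2D and at most 0.175 in 3D, where Pdgfrb, Dcn and Lum were listed at 0 in all 4 libraries, and 7 of the 8 passed the test as lower in 3D. Of the 5 markers used for mesenchymal stem cells, Thy1 and Eng were lower in 3D, Ly6a was higher, and Cd44 and Nt5e did not pass. The call of Ly6a (adjusted p = 0.043, limma), whose groups overlapped, was lost with the values as deposited, without the trend, without the filter, without both 2D libraries of mice 3 and 4 and when any 1 of the 2D libraries of mice 2, 3 and 5 or the 3D libraries of mice 4, 5 and 7 was left out, with adjusted p-values of 0.052 to 0.11. Among the 3D libraries that of mouse 1 stood apart in these markers, with a sum of 152 against 1519 to 3180 in the others, mostly from Ly6a. The 8 epithelial markers summed to 2420 to 2856 in 3D, and 7 of them passed as higher there. Of these, Krt8 (adjusted p = 0.027, limma) lost its call without the filter, with mice 4 and 5 only and when any 1 of the 2D libraries of mice 2 and 5 or the 3D libraries of mice 1, 4, 5 and 7 was left out, with adjusted p-values of 0.051 to 0.30. In 2D they summed to 3.78 and 6.33 in mice 5 and 2 but to 145 and 585 in mice 3 and 4. The 2D libraries of mice 3 and 4 also stood apart in the 5 mesothelial markers, which summed to 543 and 1468 there against 26.0 and 28.4 in mice 2 and 5 and 90.1 to 199.97 in 3D; Msln, for example, was at 253 and 728 normalized FPKM in mice 3 and 4 and at most 0.388 in mice 2 and 5. The 3D sum came mostly from Krt19, a keratin that epithelial cells also express, at 88.5 to 194 normalized FPKM, whereas Upk3b and Lrrn4 were at most 0.104 and Wt1 at most 0.998 there. Msln was at 0.506 in 3D mouse 1, 33.6 in mouse 4, 5.62 in mouse 5 and 5.98 in mouse 7. Smooth muscle markers, 6 of which all passed as lower in 3D, summed to 1694 to 5152 in 2D and to 1.34 to 1.87 in 3D. Endothelial markers, of cells rich in caveolae, summed to 1.07 to 6.82 in 2D and at most 0.258 in 3D, with none of 7 passing. The 4 adipocyte markers above 0 reached a sum of at most 0.266 in any library and none passed. Macrophage markers summed to 1.52 to 4.57 in 2D and 6.25 to 42.3 in 3D, with 1 of 5 passing, as higher in 3D. The 3D sum came mostly from Cd68, the gene that passed, at 5.98 to 36.3, and Csf1r, at 0.264 to 7.65. Ptprc and Itgam were at most 0.078 in 3D and Adgre1 was at 0 there. The part of these cell types in the results was not tested, and in bulk RNA fewer cells of a type cannot be told apart from less RNA per cell.

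All 6 caveolar genes differed between the cultures. Cav1, Ptrf, Sdpr, Prkcdbp and Ehd2 fell in 3D and Cav2 rose, and for each of them the 4 libraries of 1 culture lay wholly on 1 side of the 4 of the other. Over all genes tested, 20.3% passed the test as lower in 3D and 21.2% as higher, while in 20.9% every 3D library lay below every 2D library and in 21.6% above. The median log2 fold change of the 6 genes was -4.17, beside 0.00 over all genes tested. Leaving out the 2D libraries of mice 3 and 4, an alternative chosen after seeing the data, again gave 5 genes lower and 1 higher. With the animal as a block, a fit that rests on mice 4 and 5, none of the 6 passed: the adjusted p was 0.151 for Cav1 and 0.111 for the other 5, with unadjusted p-values from 0.00057 for Sdpr to 0.030 for Cav1. In that fit no gene of the genome passed, while 5216 had an unadjusted p below 0.05.

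**Figure D1:**
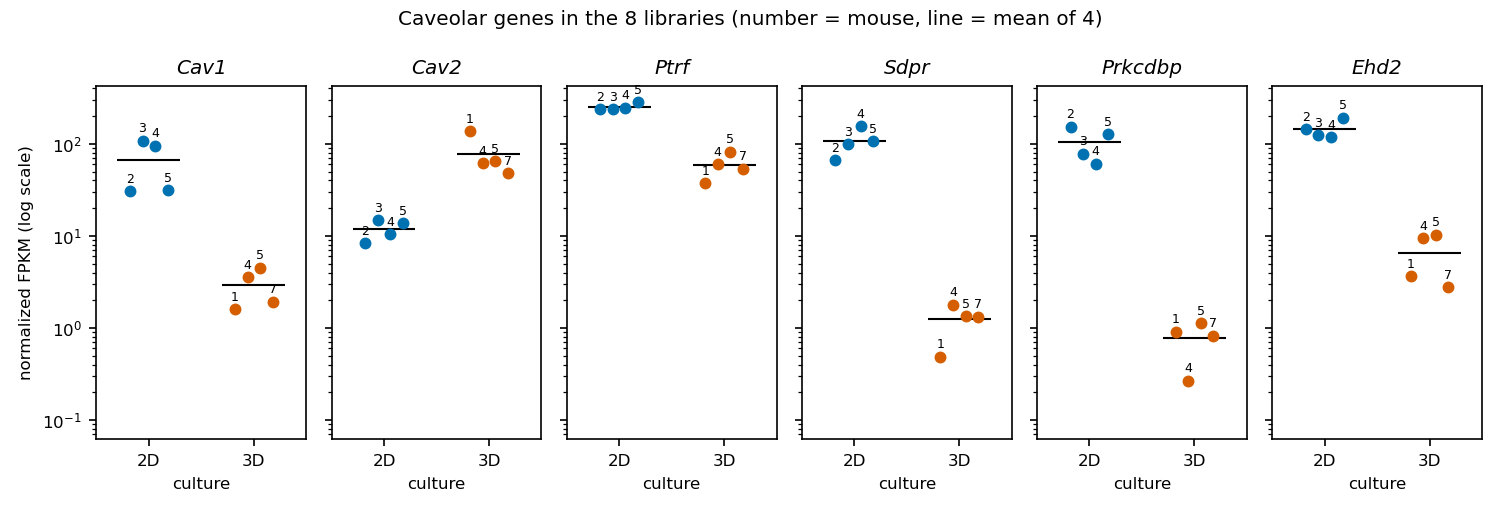
Normalized FPKM of the 6 caveolar genes in each of the 8 libraries, on a log axis, with the mouse number at each point and a line at the mean of each culture. In every panel the 4 libraries of 2D and the 4 of 3D do not overlap, and Cav2 is the gene with the higher values in 3D.

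Cav1 (chromosome 6 from 17306335 to 17341452, plus strand, GRCm38), the gene of the principal caveolin, was expressed in 2D at 30.7 normalized FPKM in mouse 2, 109 in mouse 3, 95.5 in mouse 4 and 31.2 in mouse 5. In 3D it was at 1.60 in mouse 1, 3.59 in mouse 4, 4.52 in mouse 5 and 1.93 in mouse 7. The 2D libraries thus fell into a higher pair, mice 3 and 4, and a lower pair, mice 2 and 5, and even the lower pair lay far above the highest 3D library. Mean levels of 66.5 ± 41.3 for 2D and 2.91 ± 1.38 for 3D (SD, n = 4 each) gave a ratio of 22.8. The log2 fold change was -3.94 ± 0.49 (SE), with an adjusted p of 0.00055 by limma. At the estimated depths the 3D values stand for about 83.6 to 200 fragments a library and the 2D values for 1556 to 5715, so the 3D level lies above the detection floor. The higher pair of 2D libraries is the pair with mesothelial markers, and without it the log2 fold change was -3.05 with an adjusted p of 0.0015. The part of those cells in the Cav1 level of 2D was not tested further.

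Cav2 (chromosome 6 from 17281185 to 17289115, plus strand), which encodes the partner caveolin, moved the other way. In 2D it was at 8.36, 14.9, 10.4 and 13.9 normalized FPKM in mice 2, 3, 4 and 5. In 3D it was at 137 in mouse 1, 62.1 in mouse 4, 64.3 in mouse 5 and 47.9 in mouse 7. The lowest 3D library was above the highest 2D library, and the library of mouse 1 was the highest of the 3D libraries by a wide margin. Mean levels were 11.9 ± 3.03 for 2D and 77.8 ± 40.1 for 3D (SD, n = 4 each), which is 6.55 times as high. The log2 fold change was 2.53 ± 0.33 (SE; adjusted p = 0.00068, limma). Unlike Cav1, Cav2 showed no split of mice 3 and 4 from mice 2 and 5 in 2D, and without mice 3 and 4 its log2 fold change was 2.57. Without the 3D library of mouse 1 it was 2.25.

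Of the cavins, Ptrf (chromosome 11 from 100956733 to 100970887, minus strand) encodes the member that every coated caveola needs. It was the most highly expressed of the 6 genes in 2D, at 240 normalized FPKM in mouse 2, 240 in mouse 3, 246 in mouse 4 and 284 in mouse 5. It fell in 3D to 37.3, 59.8, 82.2 and 53.7 in mice 1, 4, 5 and 7. This was the smallest fall of the 5 genes that fell, and Ptrf had the second highest mean of the 6 in 3D. The means were 252 ± 21.3 and 58.3 ± 18.6 (SD, n = 4 each), a ratio of 4.33, and the log2 fold change was -2.15 ± 0.22 (SE; adjusted p = 0.00019, limma).

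Sdpr (chromosome 1 from 51289126 to 51302960, plus strand) encodes cavin-2, a cavin linked to the shaping of the caveolar membrane. In 2D it was at 66.3 normalized FPKM in mouse 2, 99.8 in mouse 3, 156 in mouse 4 and 107 in mouse 5. In 3D the levels were 0.487, 1.80, 1.35 and 1.32 in mice 1, 4, 5 and 7. Sdpr was thus near the bottom of the measured range in 3D but above the floor, at about 32.5 to 97.7 fragments a library, against at least 4214 in 2D. The mean in 2D was 86.6 times that in 3D, and the log2 fold change was -5.57 ± 0.29 (SE; adjusted p = 6.7e-06, limma). A gene on the opposite strand, 9330175M20Rik, overlaps Sdpr and was listed at no more than 0.116 deposited FPKM in any library.

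Prkcdbp (chromosome 7 from 105480083 to 105482300, minus strand) encodes cavin-3, named for its binding to protein kinase C delta. It was at 154, 78.0, 60.9 and 127 normalized FPKM in 2D mice 2, 3, 4 and 5, and at 0.916, 0.268, 1.12 and 0.827 in 3D mice 1, 4, 5 and 7. The pairs of 2D libraries were ordered the other way from Cav1, with mice 2 and 5 above mice 3 and 4. The 3D levels correspond to about 7.94 to 31.7 fragments a library. Its fold, 134 between the means, and its log2 fold change of -5.82 ± 0.31 (SE; adjusted p = 8.2e-06, limma) were the largest among the 6 genes. Another annotated gene, Gm45667, overlaps Prkcdbp on the other strand and was not analysed here.

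Ehd2 (chromosome 7 from 15946958 to 15967567, minus strand), the ATPase of the caveolar neck, was at 145, 123, 118 and 192 normalized FPKM in 2D mice 2, 3, 4 and 5. In 3D it was at 3.68 in mouse 1, 9.44 in mouse 4, 10.3 in mouse 5 and 2.80 in mouse 7. Within 3D, mice 4 and 5 were above mice 1 and 7 for Ehd2, as they were for Cav1 and Ptrf. The means of 145 ± 33.4 and 6.55 ± 3.86 (SD, n = 4 each) differed 22.1 times, with a log2 fold change of -4.40 ± 0.38 (SE; adjusted p = 9e-05, limma).

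FPKM is corrected for length, so the levels of the 6 genes can be set in order within a culture. In 2D the order of the mean normalized FPKM was Ptrf, Ehd2, Sdpr, Prkcdbp, Cav1 and Cav2. Ptrf lay above Ehd2 and Cav1 above Cav2 in all 4 libraries with no overlap, whereas the neighbours between Ehd2 and Cav1 overlapped in their ranges. In 3D the order was Cav2, Ptrf, Ehd2, Cav1, Sdpr and Prkcdbp. Of these neighbours Ptrf and Ehd2 alone did not overlap, and Cav2 was above Ptrf in 2 of 4 libraries. Cav2 thus stood lowest in 2D and, level with Ptrf within the spread, highest in 3D. As a share of the summed deposited FPKM of the 6 genes, Cav2 made up 1.45% ± 0.49 of the 2D sum and 49.9% ± 15.4 of the 3D sum (SD, n = 4 each). The share of Ptrf was 36.4% ± 1.76 and 40.2% ± 12.6 (SD, n = 4 each). The sum itself was 819 ± 94.1 deposited FPKM in 2D and 127 ± 25.3 in 3D (SD, n = 4 each).

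The caveolin pair exchanged places within the libraries. Cav2 made up 18.4%, 10.9%, 8.40% and 28.6% of the summed deposited FPKM of Cav1 and Cav2 in 2D mice 2, 3, 4 and 5. In 3D mice 1, 4, 5 and 7 its share was 98.1%, 93.1%, 91.5% and 95.4%. The sum of both caveolins overlapped between the cultures, at 87.2 ± 49.0 deposited FPKM in 2D and 68.3 ± 30.8 in 3D (SD, n = 4 each). A ratio within a library does not depend on the scaling between libraries. The log2 ratio of Cav2 to Cav1 was -2.49 ± 0.95 in 2D and 4.33 ± 1.01 in 3D (SD, n = 4 each), a difference of 6.81. The exact permutation test, two-sided, gave p = 0.0286, and 0.0286 after adjustment over the 2 ratios tested. That is the smallest p that 4 against 4 libraries allow. In deposited FPKM both genes already separated the cultures, in opposite directions. The p of their ratio could therefore take no other value and adds nothing to the results of the single genes. Within mice 4 and 5, which gave both cultures, the mean difference was 5.98. Without the 2D libraries of mice 3 and 4 it was 6.06.

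The cavins did not fall in proportion. Ptrf made up 52.6% to 55.8% of the summed cavin FPKM in 2D and 94.2% to 95.9% in 3D. Sdpr went from 13.7% to 34.3% in 2D to between 2.08% and 3.84% in 3D, and Prkcdbp from 13.1% to 33.5% to between 0.573% and 3.70%. The share of Ptrf varied by 1.54 percentage points (SD, n = 4) among the 2D libraries although the shares of Sdpr and Prkcdbp varied by 8.61 and 8.68 points there. The cavin sum was 554 ± 89.2 deposited FPKM in 2D and 51.7 ± 14.2 in 3D, and the ratio of cavin sum to caveolin sum was 8.82 ± 5.86 in 2D and 0.883 ± 0.394 in 3D (SD, n = 4 each). The log2 ratio of Ptrf to Cav1 was 2.23 ± 1.23 in 2D and 3.99 ± 0.37 in 3D, a difference of 1.76 (exact permutation test, two-sided, p = 0.0286, adjusted 0.0286). It was at 3.23 and 3.35 in 2D mice 2 and 5 and at 1.02 and 1.31 in mice 3 and 4, and without the latter pair the difference was 0.70.

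**Figure D2:**
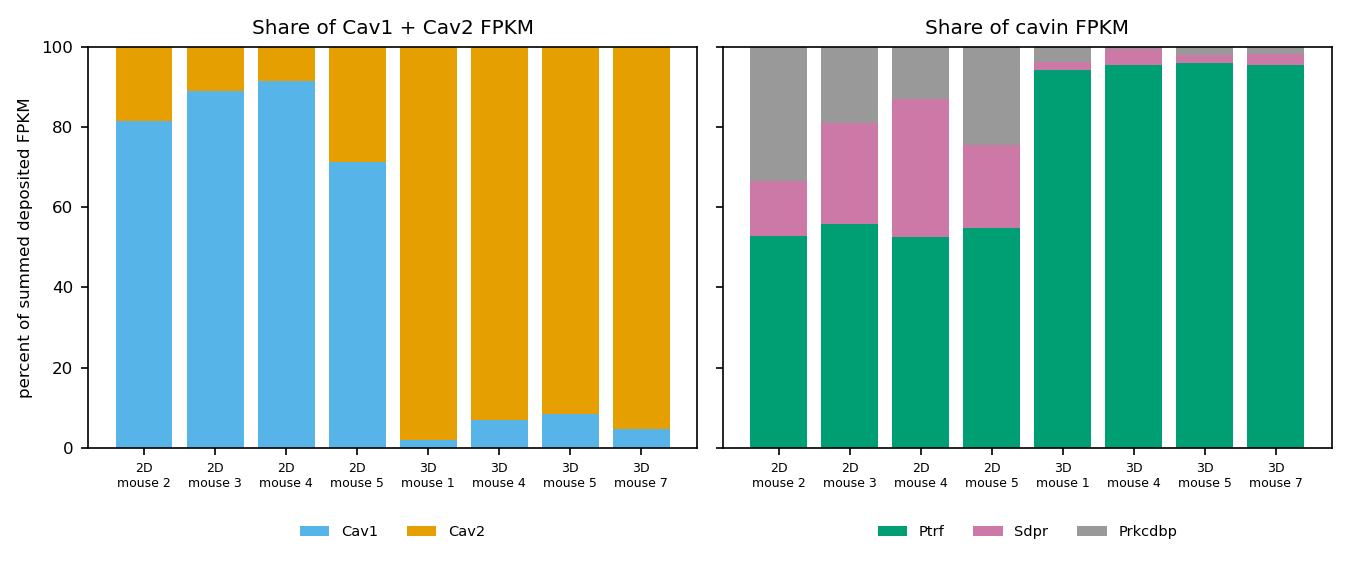
Share of each gene in the summed deposited FPKM of the caveolins Cav1 and Cav2 (left) and of the cavins Ptrf, Sdpr and Prkcdbp (right), in percent, for each library. Cav2 takes 8.40% to 28.6% of the caveolin sum in 2D and 91.5% to 98.1% in 3D, and Ptrf 52.6% to 55.8% and 94.2% to 95.9% of the cavin sum.

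Cav2 and Cav1 lie side by side on chromosome 6, on the same strand, with 17.2 kb between the end of Cav2 and the start of Cav1. An antisense gene, Gm15581, spans both in the annotation and was not analysed here, and the use of strand in counting is not given in the sources used here. Of 9 further genes fixed as neighbours, Asz1 was listed at 0 in every library and 8 were tested. Of these, 5 were lower in 3D, 1 was higher and 2 did not pass, beside 20.3% lower and 21.2% higher over all genes. Met, the receptor of hepatocyte growth factor, starts 122 kb beyond the end of Cav1 and rose as Cav2 did, from 4.54, 23.3, 13.5 and 8.41 normalized FPKM in 2D mice 2, 3, 4 and 5 to 74.3, 106, 196 and 158 in 3D mice 1, 4, 5 and 7 (log2 fold change 3.44 ± 0.49 SE, adjusted p = 0.0010, limma). On the other side, Tes, which encodes a focal adhesion protein and ends 175 kb before Cav2, fell by 1.20 on the log2 scale. Mdfic, which encodes a protein with a MyoD-family inhibitor domain, fell by 2.21 and St7 by 1.22. The Wnt ligand gene Wnt2, at 3.81 to 15.5 normalized FPKM in 2D, was listed at 0 in every 3D library and the mean of its deposited 2D values was at least 85.8-fold above a floor of 3 fragments a library. Downstream of the pair, then, Met rose while Capza2, St7 and Wnt2 fell and Cftr did not pass; Capza2 (log2 fold change -0.34, adjusted p = 0.010, limma) and Cftr (0.04) are named after their values were seen. The median log2 fold change over the 8 tested neighbours was -0.77.

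**Figure D3:**
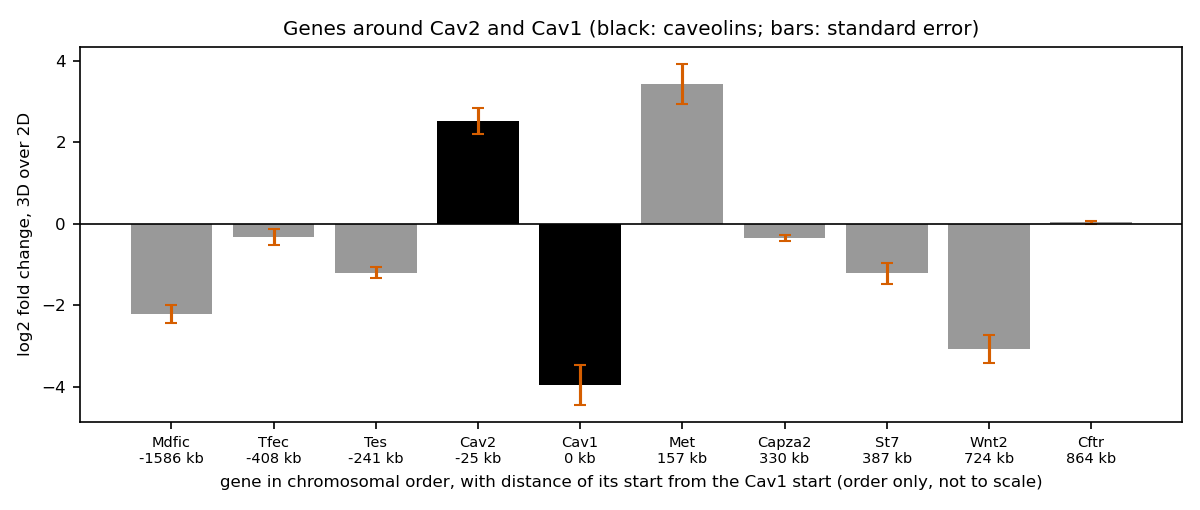
Log2 fold change (3D minus 2D, as bars, with lines for the standard error) of Cav2 and Cav1 in black and of the 8 tested neighbours in grey, in chromosomal order and not to scale; the distance of each gene's start from the start of Cav1 stands under its name in kb. Cav2, at 25.2 kb before Cav1, and Met lie well above 0, while Cav1, Mdfic, Tes, St7 and Wnt2 lie below.

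The promoters of the caveolin pair are given because the neighbours moved in opposite directions. Each is a window of 300 bases from RefSeq (GRCm38.p6), with 250 bases before and 50 after an annotated start, and Cav1 has 2 such starts. Capitals mark matches, on either strand, to the letters of 5 motifs. The GC box, bound by Sp-family factors, was searched as GGGCGG. The CCAAT box, bound by NF-Y, was searched by the letters of its name. The TATA box, bound by the TATA-binding protein, was searched as TATAAA. The motif of the TEAD factors, partners of YAP, was searched as GGAATG. The motif of the AP-1 factors, dimers of Fos and Jun proteins, was searched as TGANTCA.

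Cav2, plus strand, chr6:17280935-17281234: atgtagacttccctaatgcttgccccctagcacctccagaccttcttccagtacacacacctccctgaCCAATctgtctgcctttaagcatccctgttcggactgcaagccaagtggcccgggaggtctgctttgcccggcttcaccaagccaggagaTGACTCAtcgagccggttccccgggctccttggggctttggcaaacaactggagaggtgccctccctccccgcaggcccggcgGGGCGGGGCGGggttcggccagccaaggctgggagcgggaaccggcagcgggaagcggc

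Cav1 upstream start, plus strand, chr6:17306085-17306384: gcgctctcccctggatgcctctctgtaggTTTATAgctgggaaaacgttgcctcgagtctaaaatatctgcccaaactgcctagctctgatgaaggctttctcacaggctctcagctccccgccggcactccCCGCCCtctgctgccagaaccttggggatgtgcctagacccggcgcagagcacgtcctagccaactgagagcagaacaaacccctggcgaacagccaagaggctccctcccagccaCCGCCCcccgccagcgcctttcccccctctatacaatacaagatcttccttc

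Cav1 downstream start, plus strand, chr6:17307390-17307689: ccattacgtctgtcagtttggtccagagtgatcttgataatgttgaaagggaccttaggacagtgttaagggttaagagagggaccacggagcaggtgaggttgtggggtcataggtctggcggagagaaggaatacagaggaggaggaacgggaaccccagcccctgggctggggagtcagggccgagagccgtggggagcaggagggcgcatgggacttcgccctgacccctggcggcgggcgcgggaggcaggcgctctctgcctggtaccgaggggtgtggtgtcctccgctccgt

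The Cav2 window held 2 overlapping GC boxes, 1 CCAAT box and 1 AP-1 motif, with a GC content of 64.3%. The upstream Cav1 window held 2 GC boxes and 1 TATA-box match, read on the opposite strand near the far end of the window, at 59.3% GC. The downstream Cav1 window held none of the 5 motifs, at 62.3% GC. E-boxes (CANNTG, not capitalized) numbered 2, 1 and 1. Among all 32851 windows, 35.7% held a GC box, 37.4% a CCAAT box, 13.6% a TATA box, 14.7% a TEAD motif, 7.81% an AP-1 motif and 72.3% an E-box, and the median GC content was 52.7%. Windows were found for 5 of the 6 genes. The 2 nearly identical Ptrf windows each held 1 GC box, 1 CCAAT box and 1 TEAD motif, the Ehd2 window 2 GC boxes and 1 CCAAT box, and the Sdpr window 1 CCAAT box, with the lowest GC content, 43.3%. A match of letters is a description and shows no binding.

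Of 8 relatives of the caveolar genes (muscle paralogs, other EHD proteins and the PACSIN proteins, which bend membrane and are found at the caveolar neck), 4 were lower in 3D, 2 were higher and 2 did not pass, with a median log2 fold change of -0.34, beside 20.3% lower and 21.2% higher over all genes. Ehd1, an ATPase of recycling endosomes, fell from 116, 106, 103 and 112 normalized FPKM in 2D mice 2, 3, 4 and 5 to 17.8, 30.6, 34.3 and 21.01 in 3D mice 1, 4, 5 and 7 (log2 fold change -2.08 ± 0.20 SE, adjusted p = 0.00014, limma). Ehd4 rose instead, from 14.8 to 28.1 in 2D to 29.5 to 47.5 in 3D (log2 fold change 0.91, adjusted p = 0.010, limma), and Ehd3 was at 1.34 to 2.32 and 0.172 to 2.85 normalized FPKM with no call (adjusted p = 0.24, limma), although without the 3D library of mouse 1 its log2 fold change of -0.88 passed (adjusted p = 0.011, limma). The 4 EHD genes were thus lower in 3D for Ehd1 and Ehd2, higher for Ehd4 and without a call for Ehd3. Pacsin2, the form found at caveolae of many tissues, was at 61.4 to 88.1 normalized FPKM in 2D and 27.6 to 64.4 in 3D, with overlapping groups, and its fall of 0.78 on the log2 scale (adjusted p = 0.035, limma) was lost when any 1 of the 2D libraries of mice 2, 4 and 5 or the 3D libraries of mice 4, 5 and 7 was left out, with adjusted p-values of 0.062 to 0.080. The call was also lost without the filter (adjusted p = 0.063, limma), with mice 4 and 5 only (0.065) and without the 2D libraries of mice 3 and 4 (0.12). Pacsin3, of muscle and lung, rose from 8.40 to 9.70 to between 18.04 and 21.6 (log2 fold change 1.04, adjusted p = 9.1e-05, limma). The neuronal Pacsin1 did not exceed 0.065 normalized FPKM. Of the muscle forms, Murc (Cavin4) was at 1.05 to 3.09 normalized FPKM in 2D and listed at 0 in 3 of 4 libraries in 3D, with 0.071 in the other. Cav3 was at no more than 0.099 in 2D, under the floor of 3 fragments, and at 0 in 3D, so its passing the test rests on 1.17 to 2.34 estimated fragments a library.

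Genes that link caveolae to actin and the kinases that phosphorylate caveolin-1 were lower or without a call: of 7 tested, 5 were lower in 3D, none was higher and 2 did not pass (median log2 fold change -0.86, beside 20.3% lower over all genes); the formin gene Diaph1 of the same list was not analysed here. Fyn, a Src-family kinase, had the largest fall, from 69.1, 34.7, 20.1 and 78.5 normalized FPKM in 2D mice 2, 3, 4 and 5 to 4.62, 1.43, 1.44 and 2.29 in 3D mice 1, 4, 5 and 7 (log2 fold change -3.81 ± 0.47 SE, adjusted p = 0.00054, limma). Flna, the actin cross-linker filamin A that binds caveolin-1, fell from 357 to 719 normalized FPKM in 2D to 147 to 251 in 3D (log2 fold change -1.63 ± 0.26 SE). Ehbp1, which joins EHD proteins to actin, fell by 0.98 on the log2 scale, and Abl2, a kinase acting on actin, by 0.86.

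Of 9 receptors, channels and enzymes reported to reside in caveolae, 3 were lower in 3D, 2 were higher and 4 did not pass, with a median log2 fold change of 0.00. These counts are near the background of 20.3% lower and 21.2% higher over all genes. Pdgfrb, the PDGF receptor of mesenchymal cells and also 1 of the stromal markers above, was at 33.3, 14.3, 35.6 and 44.4 normalized FPKM in 2D mice 2, 3, 4 and 5 and listed at 0 in all 4 libraries of 3D, and the mean of its deposited 2D values was at least 932-fold above the floor of 3 fragments a library. The cation channel gene Trpc1 was at 2.73 to 3.23 in 2D and 0.194 to 1.10 in 3D (log2 fold change -1.25, adjusted p = 0.0014, limma). Egfr fell by 0.58 with an adjusted p of 0.046, and its groups overlapped, at 43.2 to 67.0 and 25.8 to 46.2 normalized FPKM. That call was lost when any 1 of the 2D libraries of mice 2, 3 and 4 or the 3D libraries of mice 1, 4 and 7 was left out, with adjusted p-values of 0.074 to 0.10. It was also lost without the trend (adjusted p = 0.053, limma) and without the filter (0.078). With mice 4 and 5 only the adjusted p was 0.45, and without the 2D libraries of mice 3 and 4 it was 0.24 (limma). Insr, the insulin receptor, rose from 6.22 to 6.93 in 2D to 10.1 to 13.2 in 3D (log2 fold change 0.70, adjusted p = 0.0016, limma). Nos3, the endothelial nitric oxide synthase that caveolin-1 binds, passed as higher at a very low level, 0.109 to 0.187 normalized FPKM in 3D, or about 9.03 to 12.1 fragments, against about 3 fragments or fewer in each 2D library.

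Of 17 genes of other uptake routes, namely clathrin coats, the AP-2 adaptor, dynamins, their helpers and flotillins, 6 were lower in 3D, 5 were higher and 6 did not pass (median log2 fold change -0.11), beside 20.3% lower and 21.2% higher over all genes, and the calls in both directions are no result about these genes as a set. With the values as deposited, without quantile normalization, 10 were lower and 2 higher, so that the split depended on the scaling. The largest rise was that of the dynamin gene Dnm3, from 0.333 to 1.61 normalized FPKM in 2D to 4.07 to 8.62 in 3D (log2 fold change 1.85, adjusted p = 0.0021, limma), while Dnm1 fell by 0.93 on the log2 scale. Within the AP-2 adaptor, Ap2a2 fell by 1.31 and Ap2b1 rose by 0.96. Of the clathrin chains, the light chain gene Cltb fell by 1.00, whereas Clta and Cltc had log2 fold changes of 0.49 and 0.32 after normalization and of -0.12 and -0.27 as deposited. Cltc passed in both directions, as higher after normalization (adjusted p = 0.036, limma) and as lower with the deposited values (adjusted p = 0.039, limma). The call of Cltc as higher was also lost when any 1 of the 2D libraries of mice 2, 3 and 5 or the 3D libraries of mice 4, 5 and 7 was left out (adjusted p from 0.051 to 0.086, limma). Picalm, an assembly protein of clathrin coats, fell by 0.76. Flot1 and Flot2, which mark membrane domains apart from caveolae, did not pass, at 46.4 to 68.0 and 28.3 to 50.5 normalized FPKM for Flot1 and 29.2 to 36.1 and 28.7 to 39.5 for Flot2 in 2D and 3D. As deposited, Flot1 was at 54.4 to 71.9 FPKM in 2D and 26.2 to 43.1 in 3D, without overlap, so its picture too depended on the scaling.

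**Figure D4:**
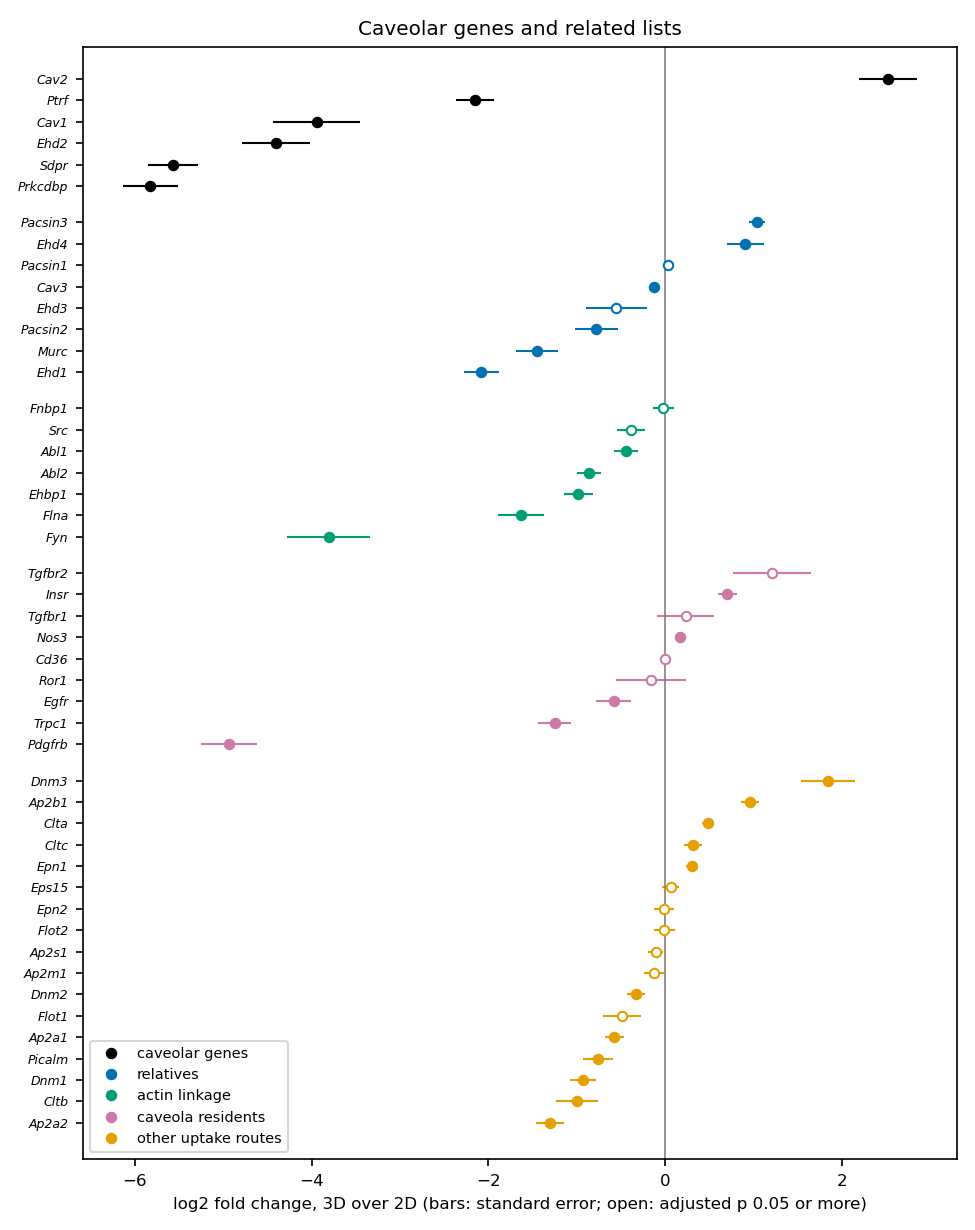
Log2 fold change (3D minus 2D) of the 6 caveolar genes and of the 4 related lists, with the standard error as bars and open circles for genes with an adjusted p of 0.05 or more. Among the caveolar genes 5 lie between -5.82 and -2.15 and Cav2 at 2.53; the 17 genes of other uptake routes lie between -1.31 and 1.85.

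Among the 6 genes, profiles over the 8 libraries were compared by the root mean square difference of log2 values centred on each gene's mean, where 0 is an identical profile. The closest pair was Sdpr and Prkcdbp at 0.769, followed by Sdpr and Ehd2 at 0.820 and Cav1 and Ehd2 at 0.827. Cav2 stood at 2.43 to 4.22 from the other 5. Against 12571 other genes whose mean reached 1 FPKM, the nearest to Cav1 were Bdnf (0.337), a neurotrophin gene, Dab2 (0.348), an endocytic adaptor gene, and Slit3 (0.379), a guidance ligand gene. All 3 share with Cav1 the higher values in 2D mice 3 and 4, Dab2 for example with 24.4 and 26.7 normalized FPKM there and 6.23 and 8.73 in mice 2 and 5. The nearest to Cav2 were Eva1c (0.191), D330041H03Rik (0.249) and Acss1 (0.268), a mitochondrial acetyl-CoA synthetase gene, and in all 3 the 3D library of mouse 1 was the highest, as for Cav2. Ptrf was closest to Ehd1 (0.134), followed by the genes of the motor myosin Myo1c (0.146) and of the actin cross-linker Actn1 (0.147). Sdpr was nearest to Tmem119 (0.251), Vgll3 (0.286) and Fam198b (0.297), and Prkcdbp to Mxra7 (0.265), Cd248 (0.271) and the matrix cross-linking oxidase gene Loxl1 (0.274). Ehd2 was nearest to Layn (0.273), Cald1 (0.345), which encodes the actin-binding caldesmon, and Tubb2b (0.378). With 8 libraries in 2 cultures, such likeness is set mostly by the difference between the cultures. It also depends on the 1 FPKM added before the log2, which draws low levels together. Acss1 was at 0 in every 2D library and Slit3 at 0 in every 3D library, unlike Cav2 and Cav1.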

How the data were processed

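Libraries were made by the authors from total RNA depleted of ribosomal RNA with a directional kit and sequenced paired-end. Reads were trimmed and aligned with TopHat to mm10, and the deposited values are FPKM per gene, computed by the authors with Cufflinks per library; the versions of both tools, the annotation and the use of strand are not given in the sources used here. The methods name quantile normalization, but the upper quartiles of the deposited values differ between libraries, so it was applied here over the 18862 genes above 0. The deposited FPKM hold no counts. Depth was estimated from 876 genes with 1 transcript of at least 3000 nt (GENCODE M21), where 65.5% to 78.1% of low values per library lay within 0.15 of a whole number of fragments.

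Log2(normalized FPKM + 1) was tested with limma 3.58.1 in R 4.3.3 (moderated test with intensity trend, no covariates, all 8 libraries, Benjamini-Hochberg over all genes, threshold 0.05), after a check on simulated data. FPKM is no count, so no count model was run. Log2 ratios of deposited FPKM were compared by exact permutation over the 70 labelings. Nothing in the labels says that cultures were repeated within an animal, and p-values measure the spread between these libraries. The mouse numbers in the labels name the animal, so mice 4 and 5 pair the cultures; deviations of same-numbered libraries from their culture means correlated at -0.05 and -0.11 over 12577 genes. The blocked fit has 1 residual degree of freedom.

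The 6 genes and all lists were chosen with earlier results of these data known. Beside the 6, at most 4 passing genes per direction of each list, every relative, the 3 most alike genes of each member and up to 3 genes of each marker list (by mean level) were named; further markers were named to describe the libraries, after their values were seen. Coordinates are from GENCODE M21 (GRCm38), to which 95.6% of symbols matched. Alternatives were the deposited values, no trend, other filters, a pseudocount of 0.1, the block, mice 4 and 5 alone, and each library left out. Figures used matplotlib.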

Additional observations from a re-analysis of the deposited data

Results flagged for a closer look

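In 136 groups of 4 libraries, Dixon's ratio of the gap between an extreme library and its nearest neighbour to the range of the group was compared with its 95% critical value, which chance exceeds in about 1 in 20 groups; 12 groups (8.82%) exceeded it. Among the caveolar genes, Ptrf alone was singled out in this way: its 2D library of mouse 5, at 284 normalized FPKM, stood above the others (ratio 0.849). The ratio was taken on normalized values, which were the same in 2D mice 2 and 3. The deposited values were more spread, at 318, 249, 274 and 354 FPKM in 2D mice 2, 3, 4 and 5.

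Of the related genes, Cav3 had a low 2D library, mouse 3 (0.935), at values under the floor of detection. Murc in 3D (1.00) and Pacsin1 in 2D (1.00) were above 0 in a single library of the group, and Dnm1 was high in the 2D library of mouse 3 (0.919). Of the markers, Krt8 was high in the 2D library of mouse 4 (0.897), Cldn4 in the 2D library of mouse 2 (0.876), at 0.621 normalized FPKM, and Msln in the 3D library of mouse 4 (0.835).

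Of the genes most like a caveolar gene, Dab2 was low (0.837) and D330041H03Rik high (0.849) in the 3D library of mouse 1, where Cav2 was also highest. Tmem119 (1.00) and Cd248 (1.00) were above 0 in a single 3D library each, mouse 4 and mouse 1.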

How the results depend on the processing

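The 5 falls and 1 rise of the caveolar genes passed under every alternative but the replicate block, with adjusted p-values of at most 0.040 in limma. With the replicate block 0 genes of any list passed in either direction. Without single libraries the log2 ratio difference of Cav2 over Cav1 was 6.34 to 7.2 and that of Ptrf over Cav1 1.36 to 2.14, with p at the smallest value 3 against 4 libraries allow, 0.0571 (exact permutation test). For Cav2 over Cav1 that p was again fixed by the separation of both genes. Without the 2D libraries of mice 3 and 4, chosen after seeing the data, the difference of Ptrf over Cav1 was 0.70, and Msln and Upk3b turned to log2 fold changes of 2.39 and 0.081. With mice 4 and 5 only, 1 relative was lower and 1 higher, 1 actin-linked gene was lower, 2 caveolar residents were lower and 1 higher, and 0 uptake genes were lower and 1 higher. A mean of at least 1 FPKM left 2 relatives lower, since Cav3 and Murc were not tested. As deposited, 10 uptake genes were lower and 2 higher, and Clta (-0.12) and Cltc (-0.27) reversed; the cause was not tested. Alternatives were followed gene by gene for 64 genes, with markers only from the stromal, mesenchymal stem cell, epithelial and mesothelial lists. Of these 64, 58 passed and 58 lost their call under the block. FPKM without counts gives no counting interval, and levels under about 0.2 FPKM are near the floor.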
